A study of Bos taurus with 15 samples.

Results

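The T cell receptor complex and its coreceptors were described through 7 of the 27270 genes counted in cattle: CD3D (ENSBTAG00000006452), CD3E (ENSBTAG00000015710), CD3G (ENSBTAG00000006453), CD247 (ENSBTAG00000012700), CD4 (ENSBTAG00000003255), CD8A (ENSBTAG00000021141), and CD8B (ENSBTAG00000008956). They were found by symbol, and all 7 had a row. Single-cell RNA-seq counts came from 15 Holstein libraries, 11 newborn (NB) and 4 adult (AD), with 1 library per tissue and stage. Duodenum, jejunum, cecum, and colon were sampled at both stages. For the liver, the salivary gland, the stomach compartments (abomasum, omasum, reticulum), the rectum, and the ileum, NB libraries alone were analysed here. The AD tissues came from 1 lactating cow. The NB tissues came from 3 calves, and the calf behind each library is not named in the sources used here. NB gut tissues were exposed to EDTA and then trypsin, after which the intestine was digested with a lamina propria kit and the stomach compartments with a mix of enzymes. AD duodenum and cecum were digested with a lamina propria kit and AD jejunum and colon with a multi tissue kit. NB liver was digested with collagenase and papain and NB salivary gland, taken from the parotid, with collagenase and dispase. Red blood cells were lysed in the AD tissues and in the NB salivary gland. Stage, animal, and dissociation therefore cannot be told apart.

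The receptor of a T cell binds antigen through variable chains that have almost no signalling tail of their own. CD3 delta, epsilon, and gamma and the CD247 zeta chain pair with them, carry the signal into the cell, and are needed to bring the receptor to the surface. CD4, carried by helper T cells, binds MHC class II on the cells that present antigen, while CD8 alpha and CD8 beta, carried by cytotoxic T cells, bind MHC class I on their targets. CD8 alpha can also form a homodimer, which is common in the gut epithelium. Cattle are known for many gamma delta T cells, a large share of which carry WC1 instead of CD4 or CD8. The constant chains of the receptor were not analysed here.

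After filtering, 2636 to 11614 barcodes per library were kept, from libraries of 17707625 to 129458578 unique molecular identifiers (UMIs, each standing for 1 captured RNA molecule). A leukocyte was taken as a barcode with at least 1 UMI of PTPRC, the CD45 gene (ENSBTAG00000023144). NB reticulum held 14 such barcodes and NB omasum 8, so the comparisons used the other 13 libraries, with 409 to 8370 PTPRC barcodes each. Levels are CPM, the UMIs of a gene scaled to a common total of the UMIs of these barcodes. They are not divided by gene length, so levels of the members are compared between libraries and not between genes. No replicate existed, no test was made, and intervals are at the 95% level and cover counting error only. At most 37 barcodes were shared by any pair of libraries, and at most 0.483% of the smaller library (34 barcodes of NB ileum and NB liver).

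CD3E, the epsilon chain, was highest in the AD large intestine and lowest in the NB small intestine. It reached 2536 CPM in AD colon, 2384 in AD cecum, 1370 in AD duodenum, and 838 in AD jejunum. In NB tissues it was 1001 CPM in salivary gland, 455 in abomasum, 410 in rectum, 392 in colon, 192 in liver, 150 in cecum, 39.1 in duodenum, 26.3 in ileum, and 23.1 in jejunum. NB salivary gland therefore stood above AD jejunum, and the stages overlapped across tissues. In this order of 13 libraries, the intervals of neighbours overlapped for rectum and colon and for ileum and jejunum of the newborn, and were apart elsewhere.

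The other receptor chains followed a like order. CD3D, the delta chain, ran from 4.64 CPM (interval 3.83 to 5.57) in NB jejunum to 865 CPM (855 to 876) in AD colon. CD3G, the gamma chain, ran from 0.20 CPM (0.065 to 0.467) in NB jejunum to 105 CPM (102 to 109) in AD colon, and its level in NB ileum rested on 4 UMIs. CD247, the zeta chain, ran from 7.88 CPM (6.82 to 9.06) in NB jejunum to 1582 CPM (1568 to 1596) in AD colon. NB salivary gland was the highest NB library for all 4 chains, with 195 CPM of CD3D, 44.1 of CD3G, and 307 of CD247.

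CD4 followed another order. It was 200 CPM in AD duodenum, 139 in AD jejunum, 126 in NB salivary gland, 110 in AD colon, 67.2 in AD cecum, 59.3 in NB rectum, and 51.8 in NB jejunum. It was 26.9 in NB colon, 24.9 in NB cecum, 18.1 in NB abomasum, 14.6 in NB duodenum, 5.75 in NB ileum, and 2.44 in NB liver. Neighbours in this order overlapped from NB colon to NB duodenum.

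CD8A, the alpha chain of CD8, was highest in AD colon, at 263 CPM, then 210 in AD cecum, 172 in AD duodenum, and 137 in AD jejunum. The NB libraries had 83.2 CPM in salivary gland, 41.3 in colon, 25.5 in abomasum, 17.7 in rectum, 17.3 in liver, and 10.4 in cecum, and under 5 in duodenum, jejunum, and ileum. All 4 AD libraries were above all 9 NB libraries for CD8A, and NB abomasum, rectum, and liver overlapped in turn, as did NB duodenum, jejunum, and ileum.

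**Figure D1:**
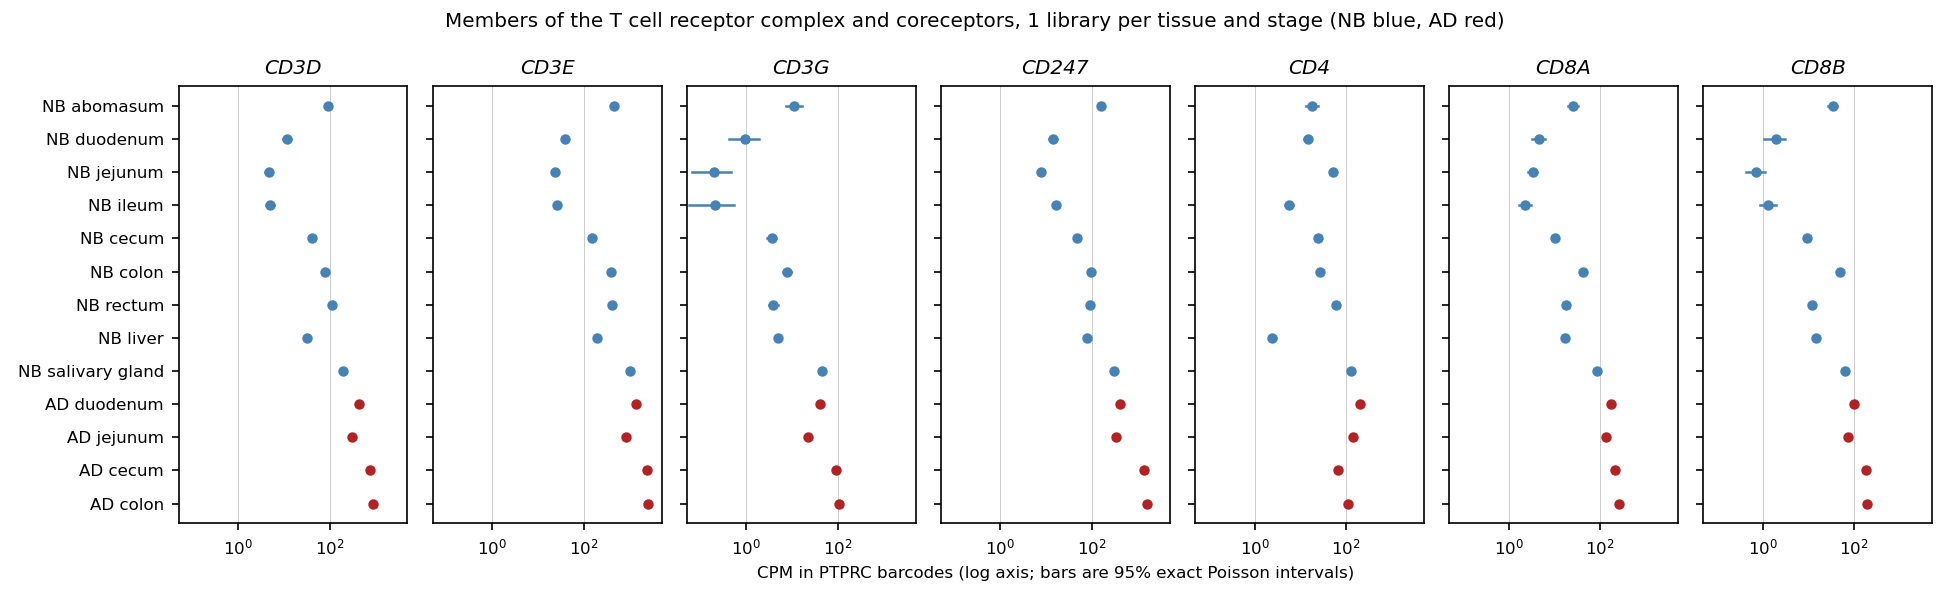
CPM of the 7 genes in PTPRC barcodes of 13 libraries on a log axis, NB in blue and AD in red, with 95% exact Poisson intervals. CD3E ran from 23.1 CPM in NB jejunum to 2536 CPM in AD colon, whereas CD4 was lowest in NB liver at 2.44 CPM and highest in AD duodenum at 200 CPM.

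The share of leukocytes with CD3 RNA was next counted, as PTPRC barcodes with at least 1 UMI of CD3D, CD3E, or CD3G (CD3 barcodes). The share was 94.7% in AD colon, 93.3% in AD cecum, 83.9% in AD duodenum, and 51.8% in AD jejunum. The matching NB tissues had 35.5% in colon, 25.1% in cecum, 7.10% in duodenum, and 5.56% in jejunum, and the intervals of the stages were apart in all 4 tissues. Of the other NB libraries, salivary gland had 78.7%, abomasum 55.3%, rectum 44.3%, liver 34.9%, and ileum 4.03%. With all UMIs, CD3 barcodes were thus most leukocytes in NB salivary gland and abomasum (interval 50.3 to 60.1 in abomasum) and few in the NB small intestine.

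Depth differed between libraries, so each barcode was thinned to 1000 UMIs, which left out 1 to 31 PTPRC barcodes per library. The thinned shares were 89.9% in AD colon, 88.5% in AD cecum, 74.5% in AD duodenum, and 44.5% in AD jejunum. They were 27.3%, 16.6%, 5.71%, and 3.90% in the same NB tissues, 60.0% in salivary gland, 40.2% in abomasum, 31.9% in rectum, 25.1% in liver, and 2.63% in ileum. The order of stages was the same in all 4 tissues. In NB abomasum CD3 barcodes were no longer most leukocytes after thinning (interval 35.4 to 45.1).

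Epithelial barcodes, which should lack CD3, were read as the background, and the source of their CD3 RNA was not tested. Among EPCAM barcodes without PTPRC, the share with CD3 RNA was 0.323% to 4.72% in NB abomasum and intestines, 8.84% in NB liver, and 28.6% (10 of 35) in NB salivary gland. In the AD libraries it was 33.9% (19 of 56) in duodenum, 11.7% in jejunum, 22.1% in cecum, and 21.9% in colon. Median depths of these epithelial barcodes were 4506 to 13303 UMIs, against 3610 to 11294 UMIs for PTPRC barcodes. The share in PTPRC barcodes was above this background in all 13 libraries. The smallest gap in the newborn was in ileum, 4.03% (3.31 to 4.85) against 0.473% (0.098 to 1.38).

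**Figure D2:**
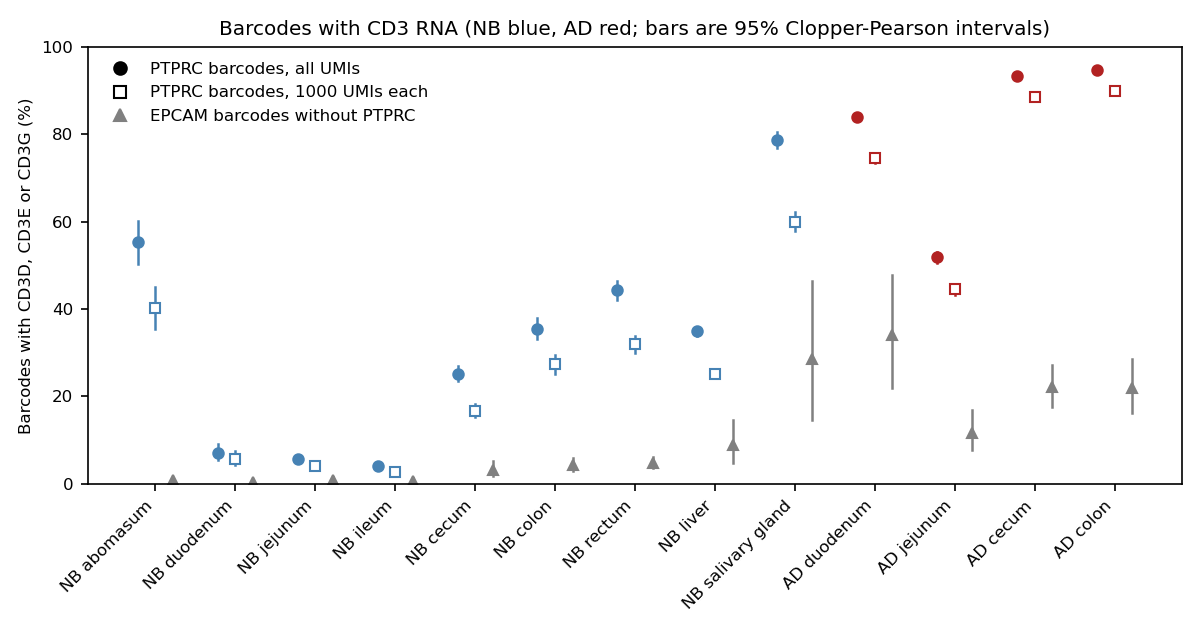
Percent of barcodes with CD3D, CD3E, or CD3G in 13 libraries: PTPRC barcodes with all UMIs (circles), the same thinned to 1000 UMIs (squares), and EPCAM barcodes without PTPRC (triangles), with 95% Clopper-Pearson intervals. AD colon reached 94.7% and NB colon 35.5%, and thinning to 89.9% and 27.3% left their order as it was.

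AD and NB leukocytes were then compared in the 4 tissues sampled at both stages. All 7 genes were higher in AD by at least 2-fold, on the log2 scale with a pseudocount of 5 CPM, in all 4 tissues. Of the 6869 genes tested in all 4, 4.27% were so, and 2.52% were lower in all 4. Tissue by tissue, 7 of 7 members were higher each time. For duodenum 16.9% of the genes tested were higher and 14% lower. For jejunum the shares were 9.05% and 6.31%, for cecum 12.7% and 14.6%, and for colon 11.2% and 11.7%. Fewer T cells and less RNA per cell cannot be told apart in these sums, which is why CD3 barcodes are read separately below.

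CD3E was 35.1-fold (interval 31.5 to 39.2) higher in AD duodenum, 36.3-fold in jejunum, 15.9-fold in cecum, and 6.46-fold in colon. CD8B, the beta chain of the classical CD8 dimer, was 1.91 CPM in NB against 101 in AD duodenum, 0.72 against 74.9 in jejunum, 9.33 against 181 in cecum, and 49.1 against 186 in colon. CD4 was 14.6 CPM in NB against 200 in AD duodenum, 51.8 against 139 in jejunum, 24.9 against 67.2 in cecum, and 26.9 against 110 in colon. The jejunum and cecum ratios of CD4, 2.69 and 2.70, were the smallest of the 28.

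Within CD3 barcodes 26 of the 28 ratios were smaller than in PTPRC barcodes, the exceptions being CD4 in duodenum and jejunum, and CD4 in cecum fell below 1. Each CD3 subunit was read in barcodes that held either of the other subunits, so that a gene did not choose its own barcodes. CD3E was 1.53-fold (1.33 to 1.76) higher in AD duodenum, 1.88-fold (1.70 to 2.08) in jejunum, 2.97-fold (2.87 to 3.08) in cecum, and 1.93-fold (1.87 to 2.00) in colon. At 1000 UMIs per barcode, with the gate read on the thinned UMIs, CD3E was 2049 against 1250 CPM in duodenum, 2387 against 1500 in jejunum, 3035 against 1135 in cecum, and 3054 against 1987 in colon. CD3D was 1.73- to 4.13-fold higher with all UMIs. CD3G was 4.67- to 6.42-fold higher in jejunum, cecum, and colon, whereas in duodenum the interval of 0.954 to 4.38 held 1.

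CD247 showed the largest ratios in the large intestine within CD3 barcodes. It was 1502 CPM in AD cecum against 207 in NB cecum, a ratio of 7.25 (6.82 to 7.71), and 1723 against 277 in colon, a ratio of 6.22 (5.85 to 6.63). In duodenum it was 2.08-fold and in jejunum 4.52-fold higher. CD8A was 2.13- to 4.74-fold higher, and CD8B was 203 CPM in AD colon and 157 in NB colon, a ratio between 1.19 and 1.41, and was 2.40- to 7.32-fold higher in the other tissues.

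CD4 within CD3 barcodes was 14.7-fold (6.30 to 45.3) higher in AD duodenum and 5.57-fold (3.64 to 9.02) in jejunum. It was 0.820-fold (0.739 to 0.911) in cecum, where NB was higher, and 1.63-fold (1.43 to 1.86) in colon. The NB value in duodenum rested on 5 UMIs and that in jejunum on 21. Without barcodes that held 3 or more of 10 macrophage markers or 2 or more of 7 B cell markers, thresholds chosen after the data were seen, the ratios were 24.6 (from 3 NB UMIs), 10.7 (from 8), 0.767, and 1.34. The direction of each was the same as with them.

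For CD247 and the coreceptors, which the CD3 gate did not use, the 2-fold rule within CD3 barcodes gave 4 of 4 higher in AD duodenum (14% of genes tested higher, 13.4% lower) and 4 of 4 in jejunum (10.6% and 8.37%). In cecum 3 of 4 were higher (8.49% and 12.4%), CD4 being the other, at a log2 ratio of -0.27. In colon CD247 and CD8A were higher (10.6% and 8.56%), with log2 ratios of 2.62 and 1.06, and CD4 at 0.66 and CD8B at 0.36 were not past the rule. CD8A in colon was close to the rule. Without macrophage or B cell marked barcodes its ratio was 1.882 (1.715 to 2.071), under 2-fold, with an interval that held 2.

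**Figure D3:**
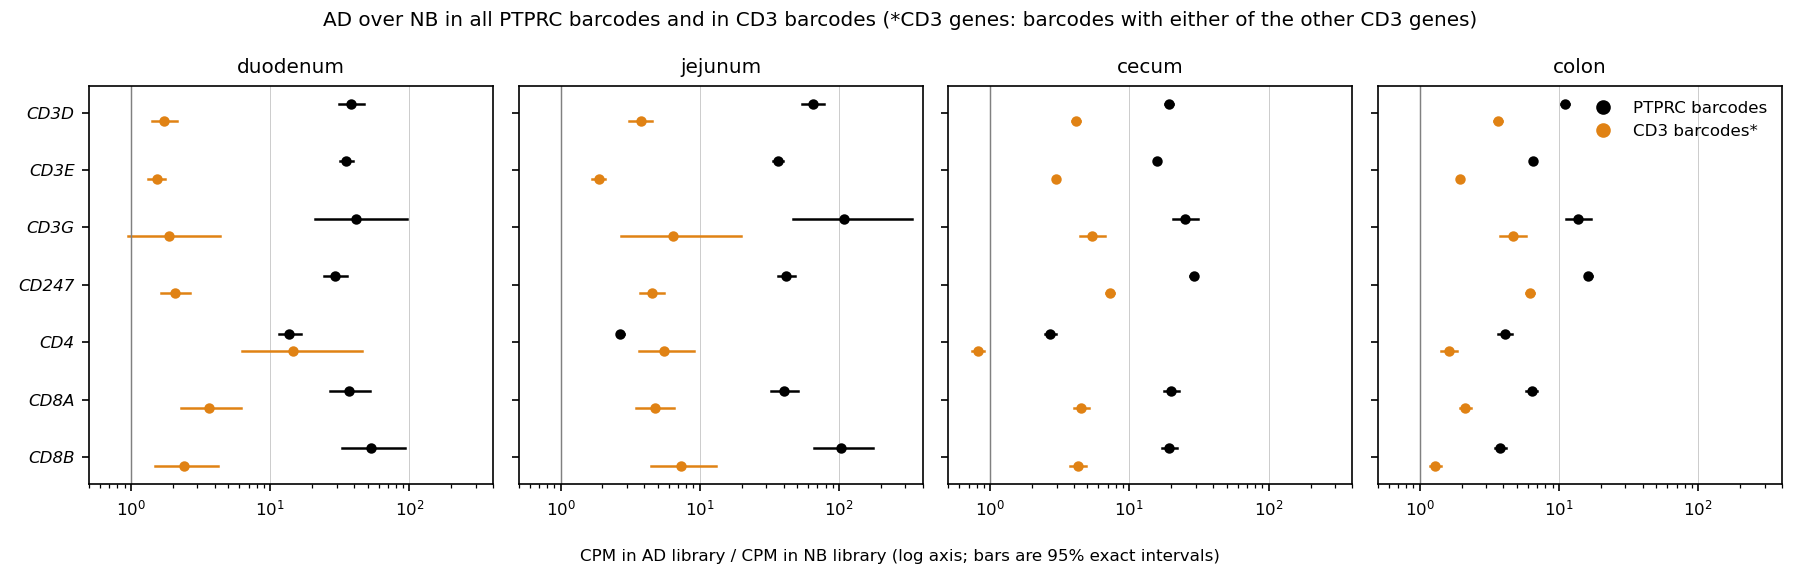
Ratio of AD to NB CPM per gene in 4 tissues on a log axis, in PTPRC barcodes (black) and in CD3 barcodes (orange; for CD3 subunits, barcodes with either of the other subunits), with 95% exact intervals. In PTPRC barcodes all 28 ratios lay above 1, and in CD3 barcodes CD4 in cecum lay below 1, at 0.820.

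Genes that act beside the receptor were higher in AD as well, from a list of 30 kinases, adaptors, and costimulators. Of 26 tested in each tissue, 24 were higher by 2-fold in duodenum, 23 in jejunum, 23 in cecum, and 22 in colon, and 0 were lower. Their median log2 ratio was 3.35, 2.69, 2.28, and 2.07, against 0.23, 0.20, 0.16, and 0.04 over all genes tested. CD96, an adhesion receptor of T and NK cells named because it had the most UMIs of the list in AD colon, which is no ranking of expression, was at 851 CPM there against 62.2 in NB colon. LCK, the kinase that phosphorylates CD3 and CD247, was 412 against 137 CPM there. Of 10 T cell transcription factors, 8 of 10 tested, 7 of 8, 7 of 9, and 5 of 10 were higher in the same tissue order and 0 were lower. TCF7, a factor of T cell identity, was 132 CPM in AD and 125 CPM in NB colon, a log2 ratio of 0.08. In the other tissues TCF7 was higher in AD, at 163 against 3.58 CPM in duodenum, 28 against 3.88 in jejunum, and 132 against 28.8 in cecum.

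Markers of other leukocytes moved with the stage. Of the macrophage markers tested, 9 of 9 were lower in AD by 2-fold in duodenum, jejunum, and cecum and 7 of 8 in colon. Their summed level was 27210, 24890, 6045, and 3041 CPM in the NB libraries and 1837, 9489, 728.8, and 1103 CPM in the AD libraries, and 9 or 10 of the 10 markers were detected in each. B cell markers were lower in AD colon, 7 of 7, and higher in duodenum, 5 of 6, and cecum, 5 of 6, while in jejunum 3 of 4 were higher and 1 lower. NK markers were higher in 4 of 6, 4 of 6, 3 of 5, and 4 of 7 and lower in 2, 1, 1, and 1 in the same tissue order as above. The highest of that list was GNLY in AD jejunum, cecum, and colon and TYROBP in AD duodenum and NB duodenum, jejunum, and cecum. These are counts of list genes and not of NK cells. Barcodes with NCR1 or KLRF1 and without CD3 RNA, macrophage, or B cell markers numbered 8 in AD and 3 in NB duodenum. They numbered 2 and 1 in jejunum and 1 and 41 in cecum. Plasma cell markers were higher in AD in 5 of 5 tested in duodenum (summed level 13110 CPM against 15.8) and 4 of 5 in jejunum (4659 against 17.7), and were mixed in cecum, 1 higher and 1 lower of 5, and colon, 2 higher and 1 lower. Of 4 dendritic cell markers tested in each tissue, 3, 0, 4, and 4 were lower in AD in the same tissue order. In that order 1, 1, 0, and 0 were higher. Neutrophil markers were lower in AD in 1 of 1, 0 of 4, 3 of 3, and 4 of 4. Of the 4 tested in jejunum 2 were higher, and 0 were higher in the other tissues. The summed neutrophil level was 126.7 CPM in AD and 58.2 in NB jejunum, and 36.7 in AD and 1057 in NB colon. Since CPM in PTPRC barcodes is a share of all their UMIs, these values stand beside the ratios of the members, and their part was not tested.

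Coreceptor RNA in CD3 barcodes was then sorted into CD4 alone, CD8A or CD8B without CD4, both, or none. In AD duodenum CD4 alone held 44.0% of 5980 CD3 barcodes and CD8 without CD4 28.8%. The reverse order was found in AD jejunum (28.6% and 43.6%), AD cecum (12.7% and 49.8%), and AD colon (17.8% and 50.5%). Among the AD libraries, cecum and colon thus had the highest shares with CD8A or CD8B and without CD4, and duodenum the highest share with CD4 alone. For CD8A by itself the order was another, with 40.9% of CD3 barcodes in AD jejunum, 36.5% in cecum, 42.1% in colon, and 27.0% in duodenum.

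In the newborn, CD4 alone exceeded CD8 without CD4 in rectum (38.8% and 19.1%) and salivary gland (32.9% and 28.1%). CD8 without CD4 exceeded CD4 alone in abomasum (31.9% and 5.31%), jejunum (23.9% and 7.46%), colon (39.5% and 13.3%), and liver (25.6% and 1.34%). The intervals overlapped in NB duodenum, where only 60 CD3 barcodes existed, in ileum, with 107, and in cecum, with 22.6% and 26.5%. Over 13 libraries, intervals placed the CD8 share above the CD4 share in 7 and below it in 3. These are shares of barcodes with a UMI, read from a pair of CD8 genes and a single CD4 gene of unknown capture, so their order within a library is one of detection and not of levels or cell numbers. After thinning to 1000 UMIs, CD8 stood above CD4 in 7 and CD4 above CD8 in 0, since the intervals then overlapped: CD4 alone and CD8 without CD4 made 22.8% and 20.8% in AD duodenum, 11.8% and 7.31% in NB rectum, and 12.9% and 14.6% in NB salivary gland.

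Many CD3 barcodes held no coreceptor UMI, 25.3% to 36.7% in AD and 34.2% to 72.6% in NB libraries. Barcodes of this class cannot be called negative at this depth: after thinning, the range was 53.0% to 64.5% in AD and 71.7% to 87.2% in NB. The highest unthinned share was in NB liver, 72.6% of 2920, where the median depth of CD3 barcodes was 2708 UMIs. Of these 2920 barcodes, 1368 held CD3D or CD3G, and the others were gated by CD3E alone. The macrophage and B cell marker thresholds given above left 2111 of the 2920. The part of these in the 72.6% was not tested.

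**Figure D4:**
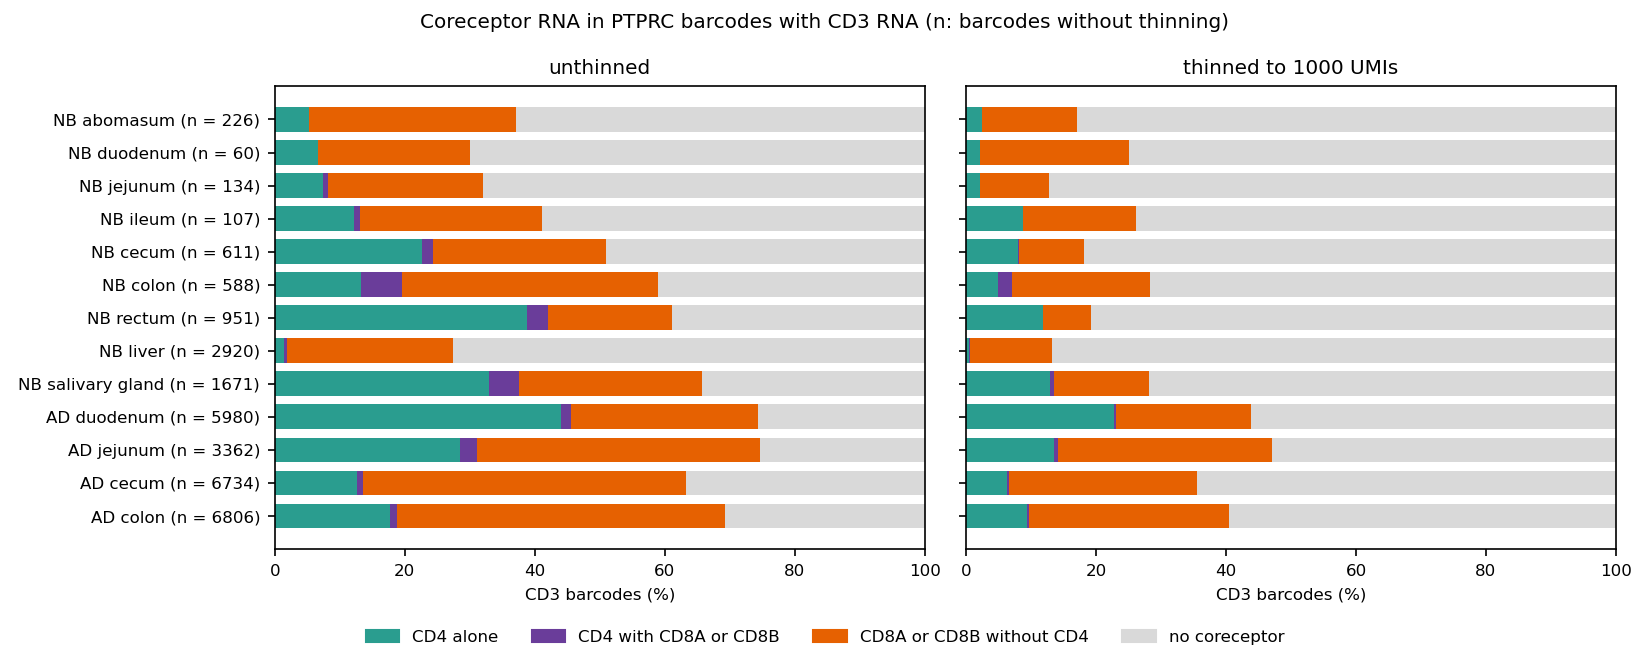
Percent of CD3 barcodes with CD4 alone, CD4 with CD8A or CD8B, CD8A or CD8B without CD4, or no coreceptor UMI in 13 libraries, with all UMIs (left) and thinned to 1000 UMIs (right). CD4 alone was 44.0% in AD duodenum and 1.34% in NB liver with all UMIs.

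CD8A and CD8B were not detected together in every CD8 barcode. In AD colon 29.5% of CD3 barcodes held both, 12.6% CD8A without CD8B, and 9.35% CD8B without CD8A. In NB jejunum 5.97% held both, 16.4% CD8A without CD8B, and 2.24% CD8B without CD8A. In NB colon 23.5% held both. The ratio of CD8B to CD8A UMIs in PTPRC barcodes was 0.212 (18 and 85 UMIs) in NB jejunum and 0.548 to 0.864 in the AD libraries. It was 1.32 (from 0.946) in NB abomasum and 1.19 (from 1.05) in NB colon. Of the 85 CD8A UMIs of NB jejunum, 33 were in macrophage barcodes without CD3 RNA. Within CD3 barcodes the ratio there was 0.357 (0.184 to 0.657; 15 and 42 UMIs), and it was 0.552 to 0.865 in the AD libraries, so that the intervals of NB and AD jejunum overlapped. In NB duodenum it was 0.410 in PTPRC barcodes, where 48.7% of 39 CD8A UMIs were in macrophage barcodes without CD3 RNA, and 0.889 (0.424 to 1.85) in CD3 barcodes.

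The ratio of CD3D to CD3E UMIs lay between 0.325 and 0.358 in the 4 AD libraries and between 0.164 in NB liver and 0.300 in NB duodenum in the 9 NB libraries. The interval of NB duodenum, 0.237 to 0.377 (98 and 327 UMIs), held all 4 AD values. Capture of each gene is unknown, so only the change of the ratio between libraries can be read. The ratio of CD247 to CD3E was 0.302 and 0.394 in AD duodenum and jejunum and 0.564 and 0.624 in AD cecum and colon. In the newborn it was 0.216 in rectum and 0.633 in ileum, with the other NB libraries between. CD247 was also found outside CD3 barcodes in ileum, which is described below.

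CD4 with CD8 in the same CD3 barcode had its highest shares in NB colon and NB salivary gland, whose intervals overlapped. It made 6.29% (4.47 to 8.57; 37 of 588) in NB colon, 4.73% (3.76 to 5.86) in NB salivary gland, 3.15% in NB rectum, and 0.802% to 2.53% in AD libraries. Without the barcodes that held macrophage or B cell markers it was 6.68% (34 of 509) in NB colon and 4.98% in NB salivary gland.

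In NB colon, 24 of the 37 (64.9%, interval 47.5 to 79.8) held RNA of RAG1, RAG2, DNTT, or PTCRA, genes that rearrange or assemble receptors in immature thymocytes. Of the other 551 CD3 barcodes 50 (9.07%) did. DNTT, the polymerase that adds bases at receptor joints, was in 17 of the 37. CD1B and CD1E, CD1 family genes listed here with the immature thymocyte markers, were in 24 and 23. MKI67, a marker of cycling cells, was in 11. Of the NB salivary gland's 79 barcodes with CD4 and CD8, none held RAG1, RAG2, DNTT, or PTCRA. Without macrophage and B cell marked barcodes, 61 of 509 CD3 barcodes of NB colon held such a gene, against at most 0.189% in the other libraries. CD1E RNA was not limited to NB colon, with 68.0 CPM in PTPRC barcodes of NB liver and 49.9 in NB rectum. There 1 of 2111 and 0 of 904 CD3 barcodes without those markers held RAG1, RAG2, DNTT, or PTCRA. In NB colon 2 or more B cell markers were found in 3 of the 37, 3 or more macrophage markers in 0 of the 37, and CD79A, a B cell gene, in 11 of the 37 and in 34.3% of the other CD3 barcodes.

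CD4 in PTPRC barcodes was lower in NB liver than in the other 12 libraries. It was 2.44 CPM (2.04 to 2.89), below all 6 NB intestinal libraries, which ran from 5.75 in ileum to 59.3 in rectum, and 9.99% of genes tested were below all 6. In all kept barcodes CD4 was 2.56 CPM in liver and 2.38 in NB duodenum, so liver was not below all 6 there. Of the 7 genes, 0 were above all 6, against 20.5% of genes tested. CD3E at 192 CPM was above 4 of the 6 and CD8B at 14.5 CPM above 5. Within CD3 barcodes CD4 was 9.17 CPM in liver against 30.4 to 144 in the NB intestinal libraries other than duodenum. NB duodenum had 17.1 CPM from 5 UMIs, and its interval (5.54 to 39.8) overlapped that of liver (7.42 to 11.2).

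WC1, a marker of bovine gamma delta T cells counted here over its rows in the files, was also most frequent in NB liver, in 16.9% of CD3 barcodes. It was in 12.7% in NB salivary gland, and in 0% to 5.24% in the other libraries. In liver, CD4 was found in 0.607% of the 494 WC1 barcodes and in 2.06% of the 2426 others, CD8A in 4.45% and 20.9%, CD8B in 6.68% and 15.9%, and CD247 in 83.8% and 54.0%. In salivary gland CD4 was in 12.7% of 213 WC1 barcodes and in 41.3% of 1458 others, CD8A in 17.4% and 27.0%, and CD8B in 12.2% and 24.8%. WC1 barcodes thus held CD8A and CD8B less often in both tissues and CD4 less often in salivary gland, while the intervals of CD4 overlapped in liver. CD4 was also less frequent in the few WC1 barcodes of NB cecum (0 of 32, against 25.7% of 579 others) and NB rectum (2 of 17, against 42.5% of 934). In AD duodenum CD4 was in 34.7% (28.0 to 41.9) of 193 WC1 barcodes and in 45.9% of 5787 others, and CD8A overlapped. In AD cecum CD8A was in 24.5% (18.8 to 31.0) of 204 and in 36.9% of 6530 others, and CD4 overlapped. In AD colon, CD8A was in 40.3% (32.5 to 48.5) of 154 WC1 barcodes and in 42.2% of 6652 others, so that no difference was detectable there, and in AD jejunum, with 60 WC1 barcodes, CD4, CD8A, and CD8B overlapped.

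Large intestine was compared with small intestine in each stage. In the newborn, CD3D, CD3E, CD247, CD8A, and CD8B were higher in all 3 large intestinal libraries than in all 3 small ones, as were 7.12% of genes tested, with 5.35% lower. The lowest large intestinal value over the highest small intestinal one was 3.43 for CD3D, 3.85 for CD3E, 2.80 for CD247, 2.24 for CD8A, and 4.89 for CD8B. CD3G was under 10 CPM in all 6 and was not counted, with a ratio of 3.72. CD4 overlapped, since NB jejunum had 51.8 CPM. In AD, the 6 genes other than CD4 were higher in both large intestinal libraries (14.1% of genes tested), and CD4 was lower, 67.2 and 110 CPM against 200 and 139 (28.7% of genes tested).

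Of the 4 members that the CD3 gate did not use, CD4 had the smallest share of its UMIs in CD3 barcodes without macrophage markers in 12 of 13 libraries, with intervals apart from those of CD247, CD8A, and CD8B in 9. The exception was NB rectum, where CD247, at 94.3%, and CD8A, at 96.1%, were lower. Of 1295 CD4 UMIs in PTPRC barcodes of NB jejunum, 98.3% were in barcodes with 3 or more macrophage markers and no CD3 RNA and 0.618% in CD3 barcodes without those markers. In NB duodenum these were 95.9% and 2.46% of 122 UMIs. In AD jejunum they were 42.9% and 49.7% of 5153 UMIs. In NB rectum, 2.13% of 1129 UMIs were in macrophage barcodes and 96.9% in CD3 barcodes. CD4 RNA of NB jejunum leukocytes thus lay mostly in macrophage barcodes, and that of NB rectum in CD3 barcodes. These shares also depend on the size of each class. Of 2410 PTPRC barcodes of NB jejunum, 1922 were macrophage barcodes without CD3 RNA and 112 were CD3 barcodes without macrophage markers. Scaled to the UMIs of its class, CD4 was 60.8 CPM in macrophage barcodes, with or without CD3 RNA, of NB jejunum. It was 15.9 CPM (6.88 to 31.4) in CD3 barcodes without macrophage markers there. In AD jejunum these were 189 and 166.5 CPM, and in NB rectum 4.47 and 148.5 CPM.

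Among PTPRC barcodes without CD3 RNA and without 2 or more B cell markers, CD4 was in 33.8% of 1912 macrophage barcodes of NB jejunum, 14.7% of 529 of NB duodenum, 11.2% of 848 of NB cecum, and 7.83% of 217 of NB ileum. In AD it was in 61.0% of 100 in colon, 50.7% of 75 in cecum, 47.1% of 2177 in jejunum, and 26.8% of 422 in duodenum. It was in 6.86% of 102 in NB abomasum, 2.65% of 603 in NB rectum, 1.94% of 155 in NB colon, 0.296% of 4391 in NB liver, and 0 of 26 in NB salivary gland. With B cell marked barcodes kept, the share stood above that of all other PTPRC barcodes without CD3 RNA, with intervals apart, in 8 of 13 libraries, and in 4 of 13 after thinning to 1000 UMIs. EPCAM barcodes without PTPRC, read as the background, held CD4 in 0.0827% to 5.71%, and the intervals of the macrophage share overlapped theirs in NB rectum, colon, liver, and salivary gland. Macrophage barcodes of NB liver were numerous and nearly without CD4.

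Counted with or without CD3 RNA, macrophage barcodes held CD4 at 340 CPM in AD colon, 194 in AD cecum, 189 in AD jejunum, and 101 in AD duodenum. In the newborn they held 60.8 CPM in jejunum, 60.4 in salivary gland, 21.2 in duodenum, 20.5 in cecum, 10.8 in ileum, 7.47 in abomasum, 4.47 in rectum, 3.87 in colon, and 0.641 in liver. In NB salivary gland 21 of the 26 UMIs were in barcodes that also held CD3 RNA. So were 116 of 375 in AD colon, 38 of 117 in AD cecum, 363 of 2574 in AD jejunum, and 32 of 209 in AD duodenum. In the other NB libraries the share of such UMIs ran from 0 in abomasum, ileum, and colon to 11 of 26 in liver. All 4 AD libraries were above all 9 NB libraries, although the intervals of AD duodenum (87.7 to 116) and NB salivary gland (39.4 to 88.5) overlapped.

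**Figure D5:**
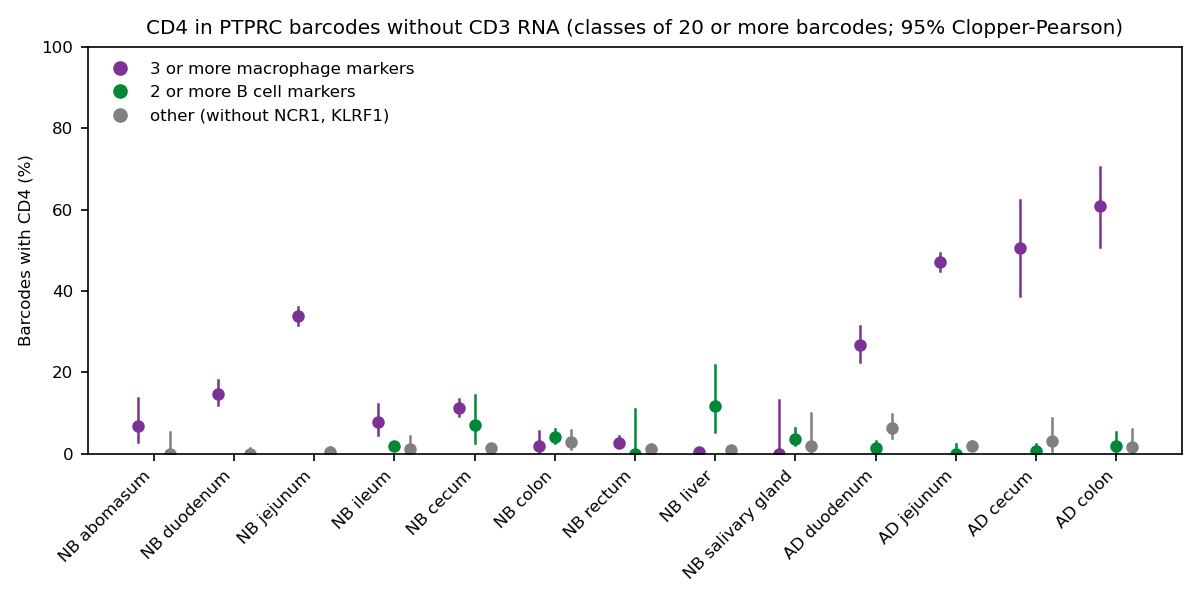
Percent of PTPRC barcodes without CD3 RNA that held CD4, by macrophage markers (purple), B cell markers (green), or neither (gray), with 95% Clopper-Pearson intervals, for classes of 20 or more barcodes. Macrophage barcodes reached 61.0% in AD colon and 33.8% in NB jejunum, and 0.296% in NB liver.

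CD247 was found in 3.60% to 14.2% of PTPRC barcodes without CD3 RNA. It also pairs with activating receptors of NK cells. In barcodes with NCR1 or KLRF1, markers of NK cells, it was in 32.9% of 155 in NB liver, 43.9% of 41 in NB cecum, and 36.4% of 33 in NB colon, against 4.92%, 4.13%, and 2.58% of the macrophage barcodes there. In NB ileum, 173 of 2104 B cell marked barcodes (8.22%, interval 7.08 to 9.48) held CD247, against 3.69% (1.60 to 7.13) of 217 macrophage barcodes and 8.64% of 162 barcodes without markers of macrophages, B cells, or NK cells. B cell marked barcodes elsewhere held it in 9.85% of 609 in NB colon, 12.4% of 314 in AD cecum, 13.8% of 159 in AD colon, 9.40% of 415 in AD duodenum, and 6.53% of 352 in NB salivary gland, with intervals that overlapped that of NB ileum, and in 3.07% of 163 in AD jejunum and 23.5% of 68 in NB liver, which did not overlap it. As a background, EPCAM barcodes without PTPRC held CD247 in 3.63% (2.31 to 5.39) in NB ileum, 5.23% (3.85 to 6.91) in NB colon, 6.12% (2.84 to 11.3) in NB liver, and 11.4% in NB salivary gland, and in 23.2% in duodenum, 4.85% in jejunum, 13.9% in cecum, and 19.3% in colon of the adult. The share in B cell marked barcodes was thus above this background, with intervals apart, in NB ileum, colon, and liver. It was below it in value in NB salivary gland and in all 4 AD libraries. The EPCAM barcodes include those with CD3 RNA, 33.9% in AD duodenum, so they cannot decide whether this lower share is background. Macrophage barcodes without CD3 RNA held CD247 in 3.32% (1.83 to 5.50) in AD duodenum, below its B cell marked barcodes (6.77 to 12.6). These intervals overlapped in the other AD libraries and NB salivary gland, with macrophages higher in AD jejunum (4.73%) and NB salivary gland (19.2%). CD8A was in 0 of the 2104 in NB ileum, which allows up to 0.175% of barcodes with a UMI at this depth and does not limit the cells that express it.

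Genes whose log2 level followed a member most closely over the 15 libraries were named as a description, since the libraries differ in depth and in share of T cells. For CD3E they were JAK3 (Pearson r 0.976), PRKCQ (0.970), and IFI47 (0.969), and for CD247 CD3D (0.985), ZAP70 (0.983), and CAPN10 (0.983). For CD8B they were TRAT1 (0.988), CD8A (0.987), and RAB37 (0.976). For CD4 they were AFG3L2 (0.922), NEDD4L (0.896), and KTN1 (0.896), none of them another member. Over the 13 libraries without NB reticulum and omasum, an alternative chosen after the data were seen, values for the CD4 genes were 0.868, 0.844, and 0.819, and for the others 0.964 to 0.984.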

How the data were processed

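Whole-number UMI counts per gene and barcode were deposited by the authors without normalization, 1 matrix for each of 15 libraries (10x 3' v3). Per the submitters' processing notes, Cell Ranger 3.1.0 and ARS-UCD1.2 were used; the annotation release is not given in the sources used here. Genes were taken from the symbols in the files. Barcodes were kept if they held 500 to 4000 genes, fewer than 50000 UMIs, and a mitochondrial share of less than 40%, and the highest doublet scores of a Scrublet-like method (2 simulated doublets per barcode, 30 components, 2000 variable genes) were removed at 0.8% per 1000 barcodes. UMIs were summed over PTPRC barcodes and scaled to CPM. Ratios carry a pseudocount of 5 CPM where called at 2-fold, over genes of at least 10 CPM in either library, and none otherwise. Intervals (95%) are exact Poisson, Clopper-Pearson, or conditional binomial. Where a count is 0, 3 counts of the total is its floor, or the Clopper-Pearson bound is given. The ratio step was tested on simulated data.

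The 7 members and all lists were chosen with earlier results of these data known. The rule for naming was the 7 members, list genes with the highest CPM, and the 3 genes most correlated with CD3E, CD247, CD4, and CD8B; other genes named were chosen after their values were seen. Macrophage barcodes held at least 3 of 10 markers and B cell barcodes at least 2 of 7. Python 3.11.15, NumPy 2.4.6, SciPy 1.17.1, pandas 2.3.3, scikit-learn 1.9.0, matplotlib 3.10.9, and edgeR 4.0.16 (TMM factors) were used. Alternatives were tried for the upper gene limit, the mitochondrial share, doublet removal, the filter on low values, the leukocyte and CD3 gates, thinning, the pseudocount, and the scaling, but not for the lower gene limit or the UMI limit. No DNA or protein sequence of the members was used here.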

Additional observations from a re-analysis of the deposited data

Results flagged for a closer look

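The share of CD3 barcodes with CD4 alone differed between stages in opposite directions. AD minus NB was 37.34 percentage points in duodenum, 21.09 in jejunum, and 4.51 in colon, and -9.89 in cecum. These are shares with all UMIs, which depend on depth. In cecum the median depth of CD3 barcodes was 7406 UMIs in NB and 3578.5 in AD. The CD4 level in those barcodes was 87.7 CPM in NB and 71.9 in AD. With 1 library per tissue and stage, the difference between tissues was not tested.

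Signal of members was found in NB forestomach barcodes that hold EPCAM and lack PTPRC, which the comparisons do not use. CD3D was in 50 of 3985 such barcodes of reticulum and in 60 of 6571 of omasum, and CD247 in 49 and 139. CD3E was in 0 and 3 of them, so the CD3D UMIs (54 and 69) were not accompanied by CD3E (0 and 3). CD247 in such barcodes was not particular to the forestomach, since its share was 1.23% and 2.12% there and 1.38% to 5.23% in NB abomasum and the NB intestines. Values of 3 or fewer counts are at or under the limit that a count of 0 allows.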

How the results depend on the processing

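All 7 members stayed higher in AD by 2-fold in each of 4 tissues under all 11 alternatives tried. CD4 in cecum came nearest to the threshold, with a log2 ratio of 1.00 when barcodes were thinned and the PTPRC gate was read on thinned UMIs, and 1.27 as reported. The AD share of CD3 barcodes stayed above the NB share in 4 of 4 tissues under all alternatives tried for it. It was not counted with the gate of at least 2 of the 3 CD3 genes. Of 7 genes, the number above all NB intestinal libraries in liver was 0 as reported, 1 with thinning, 2 with thinning and the gate on thinned UMIs, and 3 in all kept barcodes, where the number below all was 0 in place of 1 (CD4). CD4 stood higher in macrophage barcodes in 8 libraries as reported, 4 with thinning, and 3 with the thinned gate, and CD4 alone stood above CD8 in 3 libraries as reported and 0 in both thinned settings. The cause was not tested, beyond the fewer UMIs that thinning leaves. With thinning, on the gate of all UMIs and of thinned UMIs, 22 and 24 of 28 log2 ratios, 34 and 33 of 39 coreceptor shares, 12 and 9 of 13 CD3 shares, and 12 and 13 of 13 CD4 shares in macrophage barcodes left their counting intervals. At least 2 UMIs of PTPRC moved 11 of 13 CD3 shares and 10 of 28 ratios, all kept barcodes 17 of 28 ratios, and a pseudocount of 1 CPM 18 of 28. A CD3 gate of at least 2 of the 3 CD3 genes moved 15 of 39 coreceptor shares. None of the 28 ratios changed sign. In NB salivary gland the order of CD4 alone and CD8 without CD4 turned with thinning, from 32.9% and 28.1% to 12.9% and 14.6%, where the intervals overlapped. Leaving out macrophage and B cell marked barcodes, added after seeing the data, moved 1 of 13 shares with CD4 and CD8 beyond its interval, NB jejunum to 0. No paired analysis was possible because the labels give no replicate numbers, each tissue and stage has 1 library, and all AD libraries came from 1 cow. Depth limits CD3G, with 4 and 5 UMIs in NB ileum and jejunum, and CD4 within CD3 barcodes of NB duodenum, with 5 UMIs.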
